A study of Mus musculus with 6 samples.

Results

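The 33 genes described here are the transcription factors, chromatin proteins, signals and surface markers of the mouse pluripotency network, from those of the naive state to those of the primed state. They were chosen by gene name, as all probe sets whose only gene symbol in the platform's annotation is one of the 33. Of 18194 genes with such a probe set on the array, 31 were members, with 57 probe sets between them. The metabolic enzyme gene Tdh and the secreted phosphoprotein gene Spp1 had none, so their expression was not analysed here. Of the 57 probe sets, 52 passed a filter on low values (a mean log2 intensity of at least 4), and each of the 31 genes kept at least 1.

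Each tested sample was the undifferentiated mouse embryonic stem (ES) cell line that the labels call 27H, which lacks Dicer (Dicer -/-), the enzyme that cuts microRNA precursors to their mature form. In 3 samples the cells had received synthetic miRNA mimics of the miR-290 cluster (mimics), and in 3 they had received an siRNA against Renilla luciferase, called siRL in the labels (control siRNA). All were taken 24 h after transfection, and total RNA was read on Affymetrix arrays. All 6 samples lack Dicer and come from 1 line, so cells with Dicer were not part of the comparison. The culture on or off feeder cells and the dose of mimics are not given in the sources used here. Nothing says that replicates were separate cultures, so a p-value reflects only how these samples varied, possibly for technical reasons.

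Naive ES cells resemble the inner cell mass of the blastocyst, and a core of Pou5f1, Sox2 and Nanog binds its own genes and those of further factors to hold that state. Factors such as Esrrb, Tfcp2l1, Tbx3 and the Krüppel-like factors link this core to LIF and Wnt signals. On the way to the primed state of the epiblast after implantation these factors are lost and Otx2, Pou3f1 and Fgf5 are gained. The microRNAs of the miR-290 cluster are among the most abundant in mouse ES cells and promote their fast cell cycle. The 3′ arms of 6 microRNAs of the cluster are shown because the groups differ in mimics of this cluster; miR-292a-3p is named only. Which of its microRNAs were in the mimics is not stated. Sequences are from RefSeq (GRCm38.p6, chromosome 7, plus strand), 5′ to 3′, with the seed, bases 2 to 8, in capitals.
mmu-miR-291a-3p: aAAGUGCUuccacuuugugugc
mmu-miR-294-3p: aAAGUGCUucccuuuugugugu
mmu-miR-295-3p: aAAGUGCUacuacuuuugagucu
mmu-miR-291b-3p: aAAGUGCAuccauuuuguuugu
mmu-miR-290a-3p: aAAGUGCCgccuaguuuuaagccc
mmu-miR-293-3p: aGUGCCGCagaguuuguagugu
The first 3 share the seed AAGUGCU, miR-291b-3p and miR-290a-3p differ from it in the last base of the seed, and miR-293-3p has another seed. The first of them, miR-291a-3p, lies at chr7:3218968-3218989, and miR-295-3p at chr7:3220815-3220837.

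Most genes of the pluripotency network differed little between the groups. By the brightest probe set the core genes Pou5f1, Sox2, Nanog and Sall4 differed by at most 0.10 on the log2 scale. The markers Dppa5a, Dppa4, Dppa2, Gdf3 and Fgf4 differed by at most 0.06 in the same way. Dimmer probe sets gave 0.18 for Dppa2 and down to -0.19 for Fgf4. Other markers differed more, namely Tcl1 (0.44), Utf1 (0.21), L1td1 (0.11), Sall1 (-0.24) and Pecam1 (-0.22). The clearest difference was in the nuclear receptor gene Nr5a2, which was higher with the mimics on every one of its 3 bright probe sets, 1 of which passed the test. By the brightest probe set of each gene, 0 of 31 members passed in either direction in limma, at a threshold of 0.05 on the p-value after Benjamini-Hochberg adjustment. Of all 13815 tested genes 0.456% passed as higher and 1.38% as lower, 1.83% together. Counted by probe set, 1 of 52 was higher and 0 were lower, against 0.343% and 0.946% of all 29167 tested probe sets, 1.29% together, so the share of members is near that of all probe sets. At an unadjusted p under 0.05 there were 7 of the 31 genes, where 24.5% of all tested genes had one. In simulated data of this design the test recovered 8% of probe sets changed 1.5-fold, so the 95% limits of each difference are given as well. The changed probe sets were drawn at random from all tested ones, so this share need not hold for the mostly bright members. For 26 of the 31 genes (83.9%) both limits lay within 1.5-fold, against 50.6% of all tested genes. Among genes with a mean log2 intensity of at least 10 this held for 23 of 25 members (92%), near the 88.6% of all 4216 such genes.

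The arrays themselves differed little. Their median intensity was 44.1 to 44.8 with the mimics and 41.7 to 44.9 with the control siRNA, and the 3′ to 5′ ratio of the actin control probe sets, a sign of RNA quality, was 1.27 to 1.34 with the mimics and 1.32 to 1.43 with the control siRNA. The share of probe sets with an intensity under 16 was 28.5% to 29% with the mimics and 29.3% to 30.1% with the control siRNA. On this measure the groups did not overlap. Over the tested probe sets the arrays correlated at 0.963 to 0.969 within groups and 0.959 to 0.964 between them, and no array stood apart. Pou5f1, Sox2, Nanog, Zfp42 and Dppa5a, the defining markers of the labelled cell type, were bright on all 6 arrays. In a bulk sample, fewer cells of a type and less RNA per cell cannot be told apart.

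**Figure D1:**
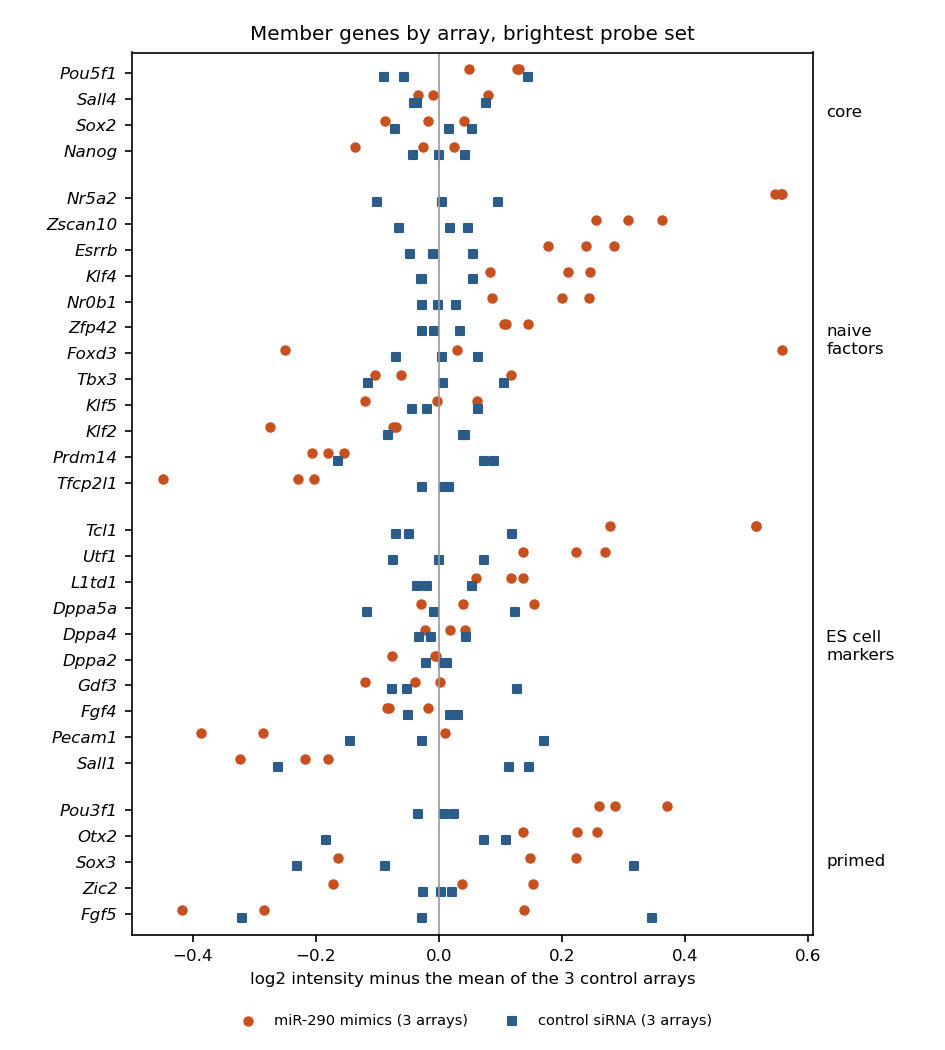
Log2 intensity of each of the 31 members on each array, by its brightest probe set, minus the mean of the 3 control siRNA arrays; circles are the mimic arrays and squares the control siRNA arrays, grouped by role and ordered by the difference. The points of the core genes are mixed. The 3 mimic points lie right of the control points for Nr5a2, Zscan10, Esrrb, Klf4, Nr0b1, Zfp42, Tcl1, Utf1, L1td1, Pou3f1 and Otx2. For Tfcp2l1 the 3 mimic points lie left of the control points.

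Among the core factors, Pou5f1 encodes Oct4, the POU-domain factor without which the inner cell mass is not pluripotent. Its intensities were 12449, 12474 and 11794 with the mimics and 10964, 12609 and 10716 with the control siRNA. The groups overlapped, since control replicate 2 was above all 3 mimic arrays. The log2 fold change, mimics minus control, was 0.10 ± 0.092 SE, with 95% limits of -0.13 to 0.34 (limma adjusted p = 0.586). Sox2, the HMG-box partner of Oct4, had 12078, 11502 and 12578 with the mimics and 12689, 11638 and 12372 with the control siRNA, and its limits were -0.22 to 0.17. Nanog, a homeodomain factor whose loss frees cells to differentiate, had 11424, 10219 and 11034 with the mimics and 10908, 11561 and 11228 with the control siRNA, limits -0.24 to 0.15. Both genes thus had overlapping groups, with means that differed by -0.02 and -0.05 on the log2 scale. Sall4, a zinc finger protein that sustains Pou5f1 expression, had 7145, 7597 and 7019 with the mimics and 7009.5, 7579 and 6987 with the control siRNA, with overlapping groups. Its difference was 0.01 with limits of -0.18 to 0.21, and a dimmer Sall4 probe set gave 0.0055. The signs of Sox2 and Nanog turned with median centring, and that of Sall4 with quantile normalization. The limma adjusted p-values of the 4 genes lay between 0.586 and 0.945. With the level-dependent prior described next 0 of the 4 passed on all arrays, and Pou5f1 passed without control replicate 2 (limma adjusted p = 0.0413).

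Another form of the same test was read beside the first, because the spread of these arrays shrinks as the signal grows. In it, limma's prior variance follows the signal level, with robust estimation (the level-dependent robust prior). It called 6.20% of all tested genes higher and 9.43% lower, 15.6% together, and of the 31 members 6 were higher (Nr5a2, Zscan10, Esrrb, Tcl1, Utf1 and Pou3f1) and 1 was lower (Tfcp2l1). By probe set it called 8 of 52 members higher and 1 lower, against 4.73% and 6.56% of all probe sets. Among genes with a mean log2 intensity of at least 10 it called 12.3% higher and 13.0% lower, 25.3% together, and among the 25 members at that level it called 5 higher (20%) and 1 lower (4%), 24% together. The share called together is near that of all bright genes, while the share called higher is above its background and the share called lower is below it, which was not tested. Leaving out 1 array at a time, this form called 3 to 9 members: 3 without control replicate 1, 4 without mimic replicate 1 or control replicate 3, 5 without mimic replicate 2, 6 without mimic replicate 3, and 9 without control replicate 2. Nr5a2, Tcl1 and Zscan10 were called in each of the 6 fits.

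**Figure D2:**
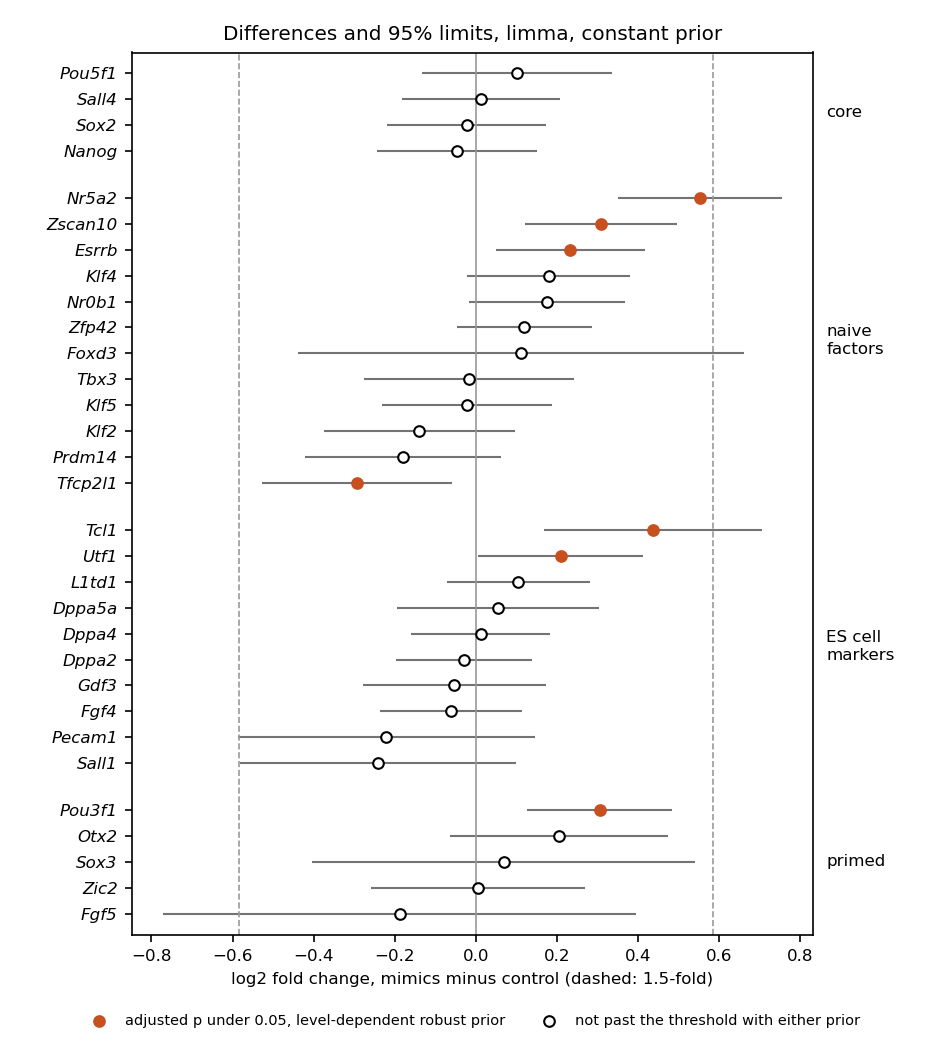
Log2 fold change, mimics minus control, of the 31 members with 95% limits from limma (n = 3 arrays each); filled points passed with the level-dependent robust prior, and dashed lines mark 1.5-fold. Limits of Nr5a2, Tcl1, Foxd3, Pecam1 and Fgf5 cross a dashed line, and those of the other 26 genes do not.

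Nr5a2, also called LRH-1, is an orphan nuclear receptor that binds regulatory DNA of Pou5f1 and can stand in for Oct4 in reprogramming. Its brightest probe set had 3429, 3431 and 3403 with the mimics, against 2490.3, 2174 and 2339 with the control siRNA, so that every mimic array was above every control array. The log2 fold change was 0.55 ± 0.080 SE, or 1.47-fold, with 95% limits of 0.35 to 0.76, and it missed the threshold (limma adjusted p = 0.0529; 0.000238 with the level-dependent robust prior). The next probe set had 1765, 1738 and 1619 with the mimics, against 1173, 1155 and 1202 with the control siRNA, and it rose by 0.54 ± 0.073 SE (limma adjusted p = 0.0468). The third had 1154, 1128 and 1141 with the mimics, against 797, 669 and 768 with the control siRNA, a log2 fold change of 0.62 that did not pass (limma adjusted p = 0.055). These 3 probe sets, which read 1 gene on the same arrays and are not replicates, thus gave 0.54 to 0.62, with no overlap of the groups on any of them. The dimmest of the 4 had 50.6, 99.8 and 92.1 with the mimics and 77.9, 61.3 and 40.6 with the control siRNA, where the groups overlapped (0.42, limma adjusted p = 0.568). The call of the second probe set rests on 6 arrays: with any 1 array left out the main test called 0 member probe sets, while the log2 fold change of the brightest Nr5a2 probe set stayed between 0.50 and 0.60.

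**Figure D3:**
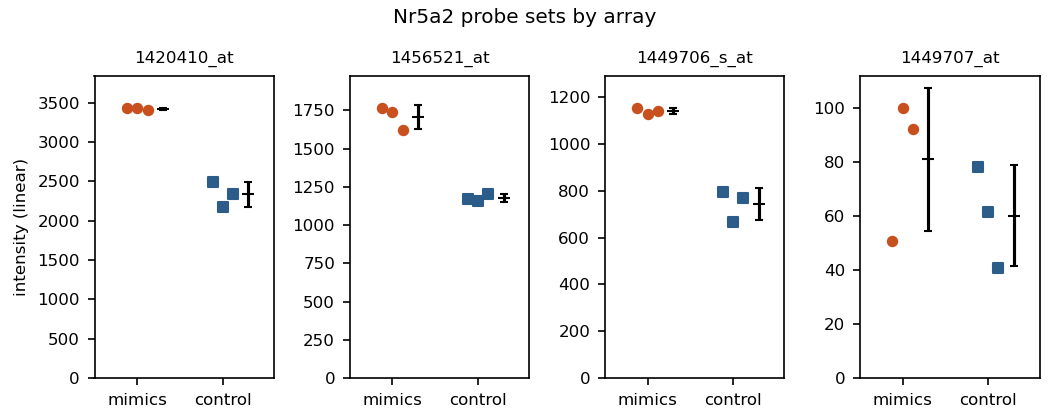
Linear intensity of the 4 Nr5a2 probe sets on each array, mimics left and control siRNA right; the bars beside the points are the mean and SD (n = 3 each), and each panel has its own axis from 0. The groups are apart in the first 3 panels and overlap in the last panel, the dimmest.

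Promoters are shown here because a probe set of Nr5a2 was the member probe set that passed the main test, and Pou5f1 and Nanog, each with limits within 1.5-fold, are known genes with sites for such factors. The windows are the 250 bases before a RefSeq start (GRCm38.p6), 5′ to 3′ along the gene. Motifs searched on both strands are in capitals: the nuclear receptor half-site AGGTCA, the extended half-site TCAAGG of the Nr5a2 type, the octamer ATGCAAA of POU factors and the Sox-type ACAATG. Nr5a2 has 2 starts in the table, and which of them the probe sets read is not given in the sources used here. For Pou5f1 and Nanog only the first listed start is shown. A further Pou5f1 window, not shown, holds the Sox-type motif.
Nr5a2, first start, chr1:136960449-136960698, minus strand: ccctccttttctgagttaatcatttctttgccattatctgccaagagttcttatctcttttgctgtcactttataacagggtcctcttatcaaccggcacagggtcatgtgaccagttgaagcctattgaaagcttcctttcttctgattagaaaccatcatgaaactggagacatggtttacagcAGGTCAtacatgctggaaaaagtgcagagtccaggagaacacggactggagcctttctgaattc
Nr5a2, second start, chr1:136953631-136953880, minus strand: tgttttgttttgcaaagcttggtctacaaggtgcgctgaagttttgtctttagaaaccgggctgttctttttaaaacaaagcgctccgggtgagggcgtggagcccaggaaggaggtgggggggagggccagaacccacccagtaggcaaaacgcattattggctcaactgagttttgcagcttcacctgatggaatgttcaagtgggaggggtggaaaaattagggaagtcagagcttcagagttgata
Pou5f1, chr17:35505782-35506031, plus strand: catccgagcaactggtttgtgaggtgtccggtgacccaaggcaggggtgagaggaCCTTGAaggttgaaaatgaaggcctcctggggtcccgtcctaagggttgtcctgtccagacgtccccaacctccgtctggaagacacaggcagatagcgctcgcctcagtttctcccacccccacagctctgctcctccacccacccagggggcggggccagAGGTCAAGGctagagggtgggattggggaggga
Nanog, chr6:122707239-122707488, plus strand: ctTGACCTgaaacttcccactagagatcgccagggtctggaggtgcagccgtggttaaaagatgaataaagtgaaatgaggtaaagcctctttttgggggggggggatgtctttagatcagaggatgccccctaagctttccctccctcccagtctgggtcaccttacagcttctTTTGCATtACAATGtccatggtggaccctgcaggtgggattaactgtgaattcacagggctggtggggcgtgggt
In the Pou5f1 window the half-site AGGTCA and the extended half-site TCAAGG overlap in 1 run, 28 and 25 bases before the start, and another TCAAGG lies on the opposite strand. The Nanog window holds the octamer, on the opposite strand, 69 bases before the start, beside the Sox-type motif at 62, and a half-site AGGTCA at 243. The first Nr5a2 window holds 1 AGGTCA, 59 bases before the start, and the second held none of the 4 motifs. Of 30 windows of the 20 members with a sequence in the table, 5 held AGGTCA (16.7%, against 14% of 32851 windows of all genes), 3 TCAAGG (10% against 12.5%), 5 ATGCAAA (16.7% against 4.12%) and 3 ACAATG (10% against 10.7%). The genes with ATGCAAA were Nanog, Sox2, Zfp42 and Spp1, the last of which has no probe set here. Some genes had several starts, so the windows are not independent. A match is a run of letters and was not tested as a bound site.

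The 12 naive factors, Nr5a2 included, had differences of both signs, and 0 passed the main test by the brightest probe set. Their median log2 fold change was 0.12, from -0.29 to 0.55, where the median of all tested genes was -0.01. Esrrb, an orphan nuclear receptor that can replace Nanog in self-renewal, had 4868, 5026 and 4664 with the mimics and 3995, 4286 and 4096 with the control siRNA. The groups did not overlap, and the log2 fold change was 0.23 ± 0.073 SE (limma adjusted p = 0.17; 0.0158 with the level-dependent robust prior, a call held only without mimic replicate 3 or control replicate 2 among the 6 fits without 1 array). Dimmer Esrrb probe sets gave 0.05 and -0.10. Zscan10, a SCAN-domain zinc finger protein also called Zfp206, had 2195, 2279.6 and 2115 with the mimics and 1794, 1831 and 1695 with the control siRNA, again with every mimic array above every control array (0.31 ± 0.074 SE, limma adjusted p = 0.109; 0.00828 with the level-dependent robust prior).

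Tfcp2l1, a grainyhead-family factor induced by LIF and Stat3, was lower with the mimics. Its values were 2621, 2576 and 2212 with the mimics and 3054, 3037 and 2962 with the control siRNA, and mimic replicate 3 was the lowest array. The log2 fold change was -0.29 ± 0.093 SE (limma adjusted p = 0.174; 0.0189 with the level-dependent robust prior, lost without mimic replicate 3, at 0.0578, and without control replicate 1, at 0.0657). Prdm14, a PR-domain protein that represses FGF signalling in naive cells, had 1313, 1337 and 1362 with the mimics and 1612, 1352 and 1594 with the control siRNA. Control replicate 2 lay among the mimic values, and the difference was -0.18 with limits of -0.42 to 0.06; with the level-dependent robust prior the limma adjusted p was 0.182, and 0.0421 without control replicate 2. Klf2, a Krüppel-like factor of the ground state, had 7931, 7908 and 6883 with the mimics and 7862, 8556 and 8569 with the control siRNA (-0.14, limits -0.37 to 0.10). Its groups overlapped, with mimic replicate 3 below the rest.

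Klf4, the Krüppel-like factor of the reprogramming set, had 7007, 6264 and 6839 with the mimics and 5803, 5791 and 6145 with the control siRNA. The groups did not overlap on this probe set (0.18, limma adjusted p = 0.293; 0.059 with the level-dependent robust prior) nor on a dimmer one (0.16), but neither passed with either prior in the fit without a replicate block. Nr0b1, or Dax1, a nuclear receptor without the usual DNA-binding domain that binds Oct4, had 5203, 5363 and 4808 with the mimics and 4526, 4616 and 4444 with the control siRNA (0.18, limma adjusted p = 0.282). Zfp42, or Rex1, a zinc finger marker of naive cells, had 15404, 15833 and 15445 with the mimics and 14044, 14662 and 14245 with the control siRNA (0.12, limits -0.05 to 0.29). In both of these genes every mimic array was above every control array by a small margin, and neither passed with either prior in the fit without a replicate block. With the level-dependent robust prior and the replicate number as a block, Klf4 and Nr0b1 passed, at limma adjusted p-values of 0.0443 and 0.043. Without 1 mimic array and with no block, Klf4 (replicate 2) and Nr0b1 (replicate 3) passed with the level-dependent robust prior, at limma adjusted p-values of 0.031 and 0.0365.

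Klf5, which overlaps in function with Klf2 and Klf4, had 4759.7, 4980.0 and 4389 with the mimics and 4706, 4985 and 4626 with the control siRNA, limits -0.23 to 0.19. Tbx3, a T-box factor downstream of PI3K signalling, had 2069, 1776 and 1828 with the mimics and 1762, 1918 and 2054 with the control siRNA, limits -0.27 to 0.24. For both genes the groups overlapped on the brightest probe set, and the dimmer probe sets gave 0.0046 and 1.15 for Klf5 and -0.23 to 0.68 for Tbx3, with 0 called by either prior. The Klf5 value of 1.15 came from a probe set with a mean log2 intensity of only 4.72. On the dimmer Tbx3 probe sets at 0.24 and 0.68, every mimic array was above every control array. Foxd3, a forkhead repressor needed for ES cell survival, had 304, 369.8 and 533 with the mimics and 379, 363 and 345 with the control siRNA. The mimic arrays spread around the control arrays, with replicate 3 high and replicate 1 low, which leaves wide limits of -0.44 to 0.66.

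The ES cell markers and effectors included 10 tested genes, of which 0 passed the main test, with a median log2 fold change of -0.01 and a range from -0.24 to 0.44. Tcl1, a coactivator of the kinase Akt that Oct4 regulates, had 1704, 1447 and 1705 with the mimics and 1295, 1152 and 1136 with the control siRNA. All mimic arrays were above all control arrays, and the log2 fold change was 0.44 ± 0.11 SE, or 1.35-fold, with limits of 0.17 to 0.71 (limma adjusted p = 0.112; 0.00658 with the level-dependent robust prior). Utf1, a chromatin protein whose enhancer binds Oct4 and Sox2, had 7372, 7132 and 6719 with the mimics and 6113, 6434 and 5803 with the control siRNA (0.21 ± 0.081 SE, limma adjusted p = 0.237; 0.0317 with the level-dependent robust prior, held only without mimic replicate 3 or control replicate 2 among the 6 fits without 1 array). A dimmer Utf1 probe set had 264, 242 and 255 with the mimics and 195, 209 and 186 with the control siRNA, also without overlap, and gave 0.37 without passing (limma adjusted p = 0.0962).

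L1td1, an RNA-binding protein derived from a LINE-1 element, had 15668, 16299 and 16514 with the mimics and 14658, 14831 and 15587 with the control siRNA. Its groups did not overlap, yet the difference was 0.11 with limits of -0.07 to 0.28. Dppa5a, a KH-domain RNA-binding protein, had 39306, 36263 and 34590.2 with the mimics and 32559.9, 38461 and 35133 with the control siRNA, limits -0.20 to 0.30. Dppa2 and Dppa4 are paired SAP-domain proteins that keep developmental genes ready for use. Dppa2 had 12186, 11590.0 and 12171 with the mimics and 12342, 12051 and 12274 with the control siRNA, limits -0.20 to 0.14. Dppa4 had 5135, 5048 and 4909 with the mimics and 4877, 5142 and 4939.8 with the control siRNA, limits -0.16 to 0.18. The groups of Dppa5a, Dppa2 and Dppa4 overlapped, and a dimmer Dppa2 probe set gave 0.18, of the opposite sign to the brightest and not called.

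Fgf4, the growth factor that primes ES cells for differentiation through ERK, had 6087, 5828 and 5816 with the mimics and 5950.1, 6299 and 6245 with the control siRNA, and its 4 probe sets all gave small negative differences, from -0.19 to -0.06, with 0 called by either prior. Gdf3, a TGF-beta family ligand of early embryos, had 7694, 7921 and 7272 with the mimics and 7627, 8637 and 7502 with the control siRNA, limits -0.28 to 0.17, and a dimmer probe set gave 0.03, of the opposite sign and not called. Both genes had overlapping groups on the brightest probe set. Sall1, a zinc finger partner of Sall4, had 1609, 1732 and 1777 with the mimics and 2229, 1681 and 2180.1 with the control siRNA. Control replicate 2 fell among the mimic values, and the difference was -0.24 (limits -0.58 to 0.10). With the level-dependent robust prior the limma adjusted p was 0.156 with all arrays and 0.0086 without control replicate 2. Pecam1, an adhesion molecule of endothelium that also marks naive cells, had 545, 668 and 507 with the mimics and 651, 747 and 601 with the control siRNA, overlapping groups with wide limits of -0.59 to 0.15.

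Of the 5 primed genes 0 passed the main test, with a median of 0.07 and a range from -0.19 to 0.31. Pou3f1, or Oct6, a POU factor of the epiblast and early neural lineage, had 712, 699 and 755 with the mimics and 570.2, 587 and 594 with the control siRNA, without overlap (0.31 ± 0.071 SE, limma adjusted p = 0.103; 0.0351 with the level-dependent robust prior, which lost the call in all 6 fits without 1 array). A dimmer Pou3f1 probe set gave 0.74, with overlapping groups. Otx2, a homeobox factor that drives the exit from the naive state, had 1524, 1657 and 1619 with the mimics and 1458, 1495 and 1221 with the control siRNA; the groups did not overlap, and the difference was 0.21 (limits -0.06 to 0.47, limma adjusted p = 0.354). Fgf5, the growth factor used as the standard marker of the epiblast, was dim in both groups, at 34.3, 50.4 and 37.6 with the mimics and 44.9, 58.2 and 36.7 with the control siRNA, and its limits of -0.77 to 0.40 were the widest among the 31 genes. Zic2, a zinc finger factor of the epiblast and neural plate, had 188, 174 and 150.1 with the mimics and 166, 172 and 169.6 with the control siRNA, limits -0.26 to 0.27. Sox3, a relative of Sox2 from the neural lineage, had 163, 203 and 213 with the mimics and 172, 156 and 228 with the control siRNA, limits -0.40 to 0.54. Mimic and control values overlapped in Fgf5, Zic2 and Sox3, and a dim Sox3 probe set gave -1.23 without passing.

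By size, the 31 members had a median absolute log2 fold change of 0.12, against 0.21 for all tested genes and 0.13 for genes with a mean log2 intensity of at least 10. In 11 members, or 35.5%, every mimic array was above every control array, where 16.2% of all tested genes did so, and in 1 member, or 3.23%, every mimic array was below, where 19.3% did so. Among the 25 bright members 11 (44%) had groups that did not overlap in either direction, near the 49.2% of all bright genes. The shares by direction were not computed for bright genes alone, and their difference from the background was not tested. Of the 21 further tested probe sets of the members 8 had the opposite sign to the brightest of their gene, and 0 of those were called with either prior.

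**Figure D4:**
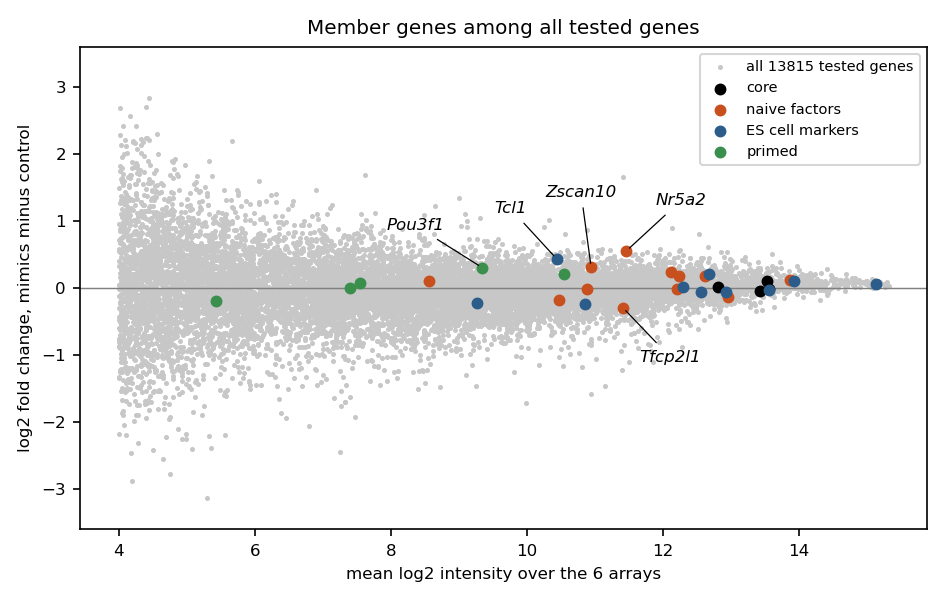
Log2 fold change, mimics minus control, against the mean log2 intensity over the 6 arrays, for 13815 tested genes (grey) and the 31 members (coloured by role), each by its brightest probe set. The members lie within the band of genes of like intensity, between -0.29 and 0.55.

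Genes of the same network outside the members were read from lists made for this comparison. Of 18 other pluripotency genes 2 rose and 0 fell, with a median of 0.10. These were Lin28a, an RNA-binding protein that blocks let-7 maturation, at 5071, 4971 and 4567 with the mimics and 1599.6, 1579.5 and 1429 with the control siRNA (1.67 ± 0.087 SE, limma adjusted p = 0.0196), and Eras, a constitutively active Ras of ES cells, at 8737, 9121 and 8988 with the mimics and 6166, 6019 and 6353 with the control siRNA (0.53 ± 0.068 SE, limma adjusted p = 0.0446). For both the groups were far apart. The level-dependent robust prior called 7 of the 18 higher, with Dppa3, Fbxo15, Gbx2, Mycn and Tcea3 added, and 1 lower, the zinc finger gene Zfx (-0.46). Dimmer Zfx probe sets gave 0.05, -0.35 and -0.39. Of 9 tested genes of a list of 13 for the primed epiblast 1 rose, the de novo DNA methyltransferase gene Dnmt3a, at 1842, 1749 and 1871 with the mimics and 864, 1008 and 842 with the control siRNA (1.01 ± 0.098 SE, limma adjusted p = 0.0338), and 0 fell, with a median of 0.34. The other Dnmt3a probe sets disagreed, with 0.70 and 1.06, the second of which passed (limma adjusted p = 0.0433), but -0.09 and -0.35 on probe sets where the groups overlapped. The level-dependent robust prior called 5 higher, namely Dnmt3a, Dnmt3b, Lef1, Etv4 and Nodal, and 1 lower, the N-cadherin gene Cdh2 (-0.66). Of all tested genes that prior called 6.20% higher and 9.43% lower. Among genes with a mean log2 intensity of at least 10 it called 12.3% and 13.0%. The main test called 0.456% of all tested genes higher and 1.38% lower. Without any single array the main test called 0 genes of either list. Results for Lin28a, Dnmt3a, Dnmt3b and Nodal were known from these arrays when the lists were made, so these counts are not independent evidence.

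Markers of other cells that such a culture could hold were mostly dim. Of 9 fibroblast genes 6 were tested and 1 fell, Tagln, an actin-binding protein (-1.05 ± 0.12 SE, limma adjusted p = 0.0422). With the level-dependent robust prior 2 of them were lower, Tagln and the calcium-binding protein gene S100a4 (-1.29, limma adjusted p = 0.0245). The summed intensity of the list was 689 to 798 with the mimics and 1035 to 1166 with the control siRNA. Tagln alone had a mean of 260 with the mimics and 540 with the control siRNA. Without passing, Dcn (-0.90) and Lum (-1.22) were lower, while Pdgfrb (0.43) and Thy1 (0.10) were higher. In Dcn and Pdgfrb the groups did not overlap. The collagen genes Col3a1, Col1a2 and Col1a1, which define fibroblasts, did not reach the filter's minimum. Of 8 primitive endoderm genes 0 passed at a limma adjusted p under 0.05, and 0 with the level-dependent robust prior, with sums of 741 to 891 with the mimics and 663 to 795 with the control siRNA. In the trophectoderm list 5 of 7 genes were tested and the keratin genes Krt8 (-0.66) and Krt18 (-0.60) fell, with sums of 4968 to 5337 with the mimics and 6439 to 6785 with the control siRNA, while Cdx2 and Elf5 were below the filter. Of 6 neural genes 4 were tested, with a median log2 fold change of -0.44. Tubb3 rose (0.62) and the dim Sox1 fell (-0.95), while Nes (-1.94, groups not overlapping) and Pax6 (0.08) did not pass. A dimmer Nes probe set gave 0.11. The sums of the list were 1535 to 1812 with the mimics and 1348 to 1513 with the control siRNA. Tubb3 alone had a mean of 896 with the mimics and 584 with the control siRNA. Without any single array the main test called 0 of these marker genes, and Sox1 did not pass with the level-dependent robust prior (0.0569). The part of these markers in the members' differences was not tested.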

How the data were processed

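Total RNA of 6 samples, 3 with the mimics and 3 with the control siRNA, was labelled as biotinylated cRNA and read on Affymetrix arrays, per the labels' protocols. Each array's deposited column holds a linear intensity for each of 45101 probe sets. GCRMA is named in the submitters' processing notes, but on each array the mean intensity without the lowest and highest 2% was 500, as in a global scaling, so which tool made the deposited intensities is not settled. Background and detection were not analysed here, so low values are uncertain. The number of arrays limits the precision.

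The design had assumed log2 values, so the intensities were log2-transformed with no offset and not normalized again. After 64 control probe sets and 15870 with a mean log2 under 4 were left out, 29167 remained for the fit in limma 3.58.1 under R 4.3.3 (lmFit, eBayes with a constant prior, 2-sided, no covariates), with Benjamini-Hochberg adjustment over all of them and a threshold of 0.05. The brightest probe set stood for a gene, and levels were not compared between probe sets. Gene names came from the platform's annotation, where 34958 probe sets had 1 symbol, 932 had several and 9211 were not listed. Groups and replicate numbers came from the sample titles. Deviations of same-numbered arrays correlated at -0.0061 to 0.024, and those of other pairs of arrays at -0.026 to 0.013, so the numbers gave no sign of pairing. A pairing that touched few probe sets could not be seen this way. All samples carry 1 analysis date, so no batch could be separated.

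The text names every member by its brightest probe set, with its other tested probe sets where they differ in sign or call, and of each other list the genes past the threshold; further genes of these lists called with the level-dependent prior were named after their values were seen. The members and lists were chosen with earlier results of these data known. In simulated data 50 probe sets, drawn at random among 29167 and not matched to the members' intensity, were changed at each fold. The test recovered 8% at 1.5-fold, 40% at 2-fold, 68% at 4-fold and 74% at 8-fold, with 3 false calls. With the level-dependent robust prior it recovered 26%, 46%, 66% and 82%, with 4 false calls. Alternatives were that prior, other filters, an offset, median centring, quantile normalization, averaging a gene's probe sets, a replicate block and leaving out each array; leaving out arrays or adding the block with the level-dependent prior was chosen after seeing the data.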

Additional observations from a re-analysis of the deposited data

How the results depend on the processing

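The counts of calls depended strongly on the settings. The main test called 376 probe sets (100 higher and 276 lower), 1 member probe set, 0 member genes, 2 other pluripotency genes, 1 other primed epiblast gene and 5 marker genes. The level-dependent robust prior called 3293 probe sets (1379 and 1914), 9 member probe sets, 7 member genes, 8 other pluripotency and 6 other primed genes. With no filter on low values all of these counts were 0 in limma (5645 probe sets at an unadjusted p under 0.05). With a mean log2 of at least 6 there were 2373 probe sets (851 and 1522), 7 member probe sets, 4 member genes (Nr5a2, Zscan10, Tcl1 and Pou3f1), 5 other pluripotency and 6 other primed genes. With an offset of 16 there were 628 (186 and 442), 3 member probe sets and 1 member gene, Nr5a2. Median centring left 153 (50 and 103), 0 member probe sets, 1 other pluripotency gene and 0 marker genes. Quantile normalization left 1 other pluripotency gene, and averaging over probe sets of a gene gave 2 other primed genes. The replicate block left 0 of 29167 probe sets in limma (5189 at an unadjusted p under 0.05), hence 0 in each list; with the level-dependent robust prior and the replicate block there were 3558 (1528 and 2030), 11 member probe sets and 9 member genes, Klf4 and Nr0b1 being added. Leaving out 1 array left 0 to 1 probe sets and 0 in each list in limma (4612 to 5205 at an unadjusted p under 0.05), and with the level-dependent robust prior 1971 to 2844 probe sets, 5 to 12 member probe sets and 3 to 9 member genes. Some settings differ in the number of samples or probe sets tested; otherwise the cause was not tested.

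Of 650 member fold changes under an alternative 546 kept direction and side of the threshold, 52 passed where the main one did not, and 52 changed sign. Median centring gave Sox2 0.025, Nanog 0.0011, Klf5 0.026, Tbx3 0.031 and Dppa2 0.018. Quantile normalization gave Sall4 -0.035, Dppa4 -0.030 and Dppa5a -0.031. Averaging over probe sets of a gene gave Klf5 0.38, Tbx3 0.17, Dppa2 0.073 and Sox3 -0.58. Leaving out 1 array, the log2 fold change ran from -0.0028 to 0.035 for Dppa4, -0.0036 to 0.12 for Dppa5a, -0.11 to 0.29 for Foxd3, -0.090 to 0.011 for Gdf3, -0.062 to 0.030 for Klf5, -0.021 to 0.051 for Sall4, -0.057 to 0.012 for Sox2, -0.046 to 0.23 for Sox3, -0.082 to 0.038 for Tbx3 and -0.067 to 0.095 for Zic2. Dim probe sets, such as those of Fgf5, Foxd3 and Sox3, have wide limits at 3 arrays a group.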

Other observations

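The 5 member probe sets below the filter were not tested, and each of their genes has a brighter one. The brighter of the 2 dim Tfcp2l1 probe sets had intensities of 9.10, 28.7 and 11.6 with the mimics and 10.06, 3.22 and 0.745 with the control siRNA, where the groups overlapped. The dim Tbx3 probe set had 5.87, 2.71 and 1.38 with the mimics and 6.78, 20.4 and 1.61 with the control siRNA. The dim Fgf5 probe set had 22.2, 3.06 and 4.08 with the mimics and 3.76, 5.88 and 2.25 with the control siRNA.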
